A study of Danio rerio with 36 samples.

Results

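The genes described here are 9 zebrafish genes of the liver X receptor (Lxr) sterol export programme: srebf1, nr1h3, abca1a, abca1b, abcg1, abcg5, abcg8, mylipa and mylipb. They were chosen by gene symbol from a list of known Lxr targets, with earlier results of these data known. Of the symbols, 9 of 9 were found among the 24860 genes of experiment 1 and the 25077 genes of experiment 2. All 9 were also among the 19727 and 20169 genes that passed a filter on low values and were tested. RNA came from pooled larval heads, cut in front of the swim bladder, of a mixed wild-type zebrafish line kept at the US EPA, at 10 days after fertilization. Axenic larvae had been made and kept free of microbes, re-colonized larvae had been made axenic and then given microbes on day 1, and conventional larvae carried a normal microbial community. The study asked what goes with the hyperactive swimming of axenic larvae, and the re-colonized group controls for the derivation procedure.

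There were 2 experiments. The first used total RNA depleted of ribosomal RNA, with 6 libraries in each group, named by letters. The second used polyA-selected RNA, with 4 axenic libraries against 7 for each colonized group, named by numbers. The labels give neither the number of heads in a pool nor whether pools are separate spawns, and the spread behind every p-value is therefore that between these libraries, which may be partly technical. Libraries of experiment 1 summed to 11716742 to 15017642 counts and those of experiment 2 to 15148058 to 25760592 counts. In experiment 1 the library names of the axenic and re-colonized groups carry the mark L6 and those of the conventional group L7, so whatever that mark stands for cannot be told apart from a difference between either of them and the conventional heads. Library names of experiment 2 end in an S number. Some conventional libraries share theirs with an axenic or re-colonized library, while no number repeats among the axenic and re-colonized libraries. What the number stands for is not stated. If the conventional libraries were numbered apart, that too cannot be told apart from a difference between groups. Re-colonized libraries 1 and 7 of experiment 2 stood apart in scaling, with TMM factors of 1.55 and 1.38. Genes of neurons were read at summed levels of 979 to 1314 CPM (counts scaled to a common library size) in experiment 1 and 2548 to 5453 CPM in experiment 2, and no neuron marker in the tables was at 0 in any group.

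Lxr is a nuclear receptor that binds oxysterols, the oxidized forms of cholesterol that accumulate when a cell holds more sterol than it needs. Bound to its partner Rxr, it switches on genes that carry cholesterol out of the cell, that slow its uptake and that make fatty acids, while the opposing SREBP-2 pathway switches on sterol synthesis and uptake when sterol is scarce. In the vertebrate brain, where cholesterol is largely made locally, Lxr targets such as ABCA1 move sterol between glia and neurons. Most of what is known of these genes comes from mammals, and zebrafish carry duplicated copies of ABCA1 and MYLIP.

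In both experiments the axenic heads held less transcript of abca1a, srebf1 and mylipa than either colonized group, with no overlap between libraries. Of all tested genes, 6.58% and 6.08% had no overlap against conventional and re-colonized heads in experiment 1, and 5.27% and 4.41% in experiment 2. None of the 9 genes passed between re-colonized and conventional heads, where 0.0152% of all tested genes passed in experiment 1 and 0% in experiment 2. Against conventional heads the falls of abca1a, srebf1 and mylipa were of 0.61 to 0.73 on the log2 scale in experiment 1 and of 0.94 to 1.57 in experiment 2. abcg1 fell in experiment 2 against conventional heads and over both experiments together. The second copies abca1b and mylipb were called lower in no comparison: abca1b was not called at all, and mylipb rose against conventional heads over both experiments together. The levels of abcg5, abcg8 and nr1h3 passed no test within either experiment. Levels are given in CPM after TMM scaling, which does not correct for transcript length, so they compare libraries and not genes. Scaling was done within each experiment, and 7SL and 7SK RNAs held 33.3% to 46.5% of the counts of experiment 1. CPM are therefore not compared between the 2 experiments.

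srebf1 encodes the transcription factor SREBP-1, whose 1c form is an Lxr target in mammals and drives fatty acid synthesis. It lies on chromosome 3 at 62064805 to 62087347 on the minus strand (GRCz11, as are all positions here). In experiment 1 its level was 47.6 CPM at the lowest, 53.4 at the median and 87.1 at the highest in axenic heads, 90.8, 97.7 and 124 CPM in re-colonized heads, and 90.9, 102 and 110 CPM in conventional heads. Every axenic library lay below every colonized one, and axenic G and H, at 73.2 and 87.1 CPM, were nearest to them. In experiment 2 the axenic libraries 1, 3, 4 and 7 held 48.8, 49.0, 50.4 and 54.5 CPM, against 80.9, 105 and 121 CPM in re-colonized heads and 95.5, 119 and 143 CPM in conventional heads (lowest, median, highest). The 4 axenic libraries again lay below all others and close to each other. The fall against conventional heads was -0.73 on the log2 scale (SE 0.12, edgeR adjusted p = 0.000153) in experiment 1 and -1.25 (SE 0.18, edgeR adjusted p = 0.000197) in experiment 2. Against re-colonized heads it was -0.73 (SE 0.12, edgeR adjusted p = 0.00012) and -1.04 (SE 0.18, edgeR adjusted p = 0.00151). Gene counts do not separate the 1a and 1c forms.

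abca1a encodes an ABC transporter whose mammalian counterpart loads cellular cholesterol and phospholipid onto apolipoprotein A-I, the first step of HDL formation. It lies on chromosome 1 at 52560549 to 52628408 on the plus strand. In experiment 1 it ranged over 326, 391.8 and 461 CPM in axenic heads (lowest, median, highest), 562, 585 and 844 CPM in re-colonized heads, and 591, 606 and 684 CPM in conventional heads. All 6 axenic libraries were below the 12 colonized ones, among which re-colonized F stood highest. In experiment 2 the axenic libraries 1, 3, 4 and 7 held 747, 725, 675 and 400 CPM, against 854, 1227 and 1318 CPM in re-colonized heads and 995, 1239 and 1358 CPM in conventional heads. No axenic library reached a colonized one, and axenic 7 was far below the other 3. The change against conventional heads was -0.66 (SE 0.11, edgeR adjusted p = 0.000115) in experiment 1 and -0.94 (SE 0.22, edgeR adjusted p = 0.012) in experiment 2, and against re-colonized heads it was -0.67 (SE 0.11, edgeR adjusted p = 9.65e-05) and -0.85 (SE 0.22, edgeR adjusted p = 0.0295). The calls of experiment 2 rest on few libraries: without axenic 7 the edgeR adjusted p became 0.0623 against conventional and 0.162 against re-colonized heads. The call against re-colonized heads was also lost without axenic 4 (0.0775), re-colonized 3 (0.058) or re-colonized 7 (0.056). The log2 change itself stayed between -1.03 and -0.82 against conventional heads over left-out libraries. Against re-colonized heads it stayed between -0.94 and -0.70. Without axenic 7 the genes called over the whole table fell as well, from 1237 to 391 and from 785 to 165.

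mylipa encodes an E3 ubiquitin ligase, called IDOL in mammals, that marks the LDL receptor for degradation and so slows cholesterol uptake. It lies on chromosome 19 at 26340736 to 26378656 on the plus strand. In experiment 1 it ranged over 46.1, 70.3 and 82.0 CPM in axenic heads, 90.9, 96.0 and 119 CPM in re-colonized heads, and 91.9, 97.9 and 116 CPM in conventional heads (lowest, median, highest). The axenic range ended below both colonized ranges. In experiment 2 axenic libraries 1, 3, 4 and 7 held 51.8, 42.8, 57.8 and 40.6 CPM, against 82.5, 93.9 and 130 CPM in re-colonized heads and 108, 140 and 180 CPM in conventional heads. The 4 axenic libraries lay below all others, and re-colonized and conventional heads overlapped. The change against conventional heads was -0.61 (SE 0.11, edgeR adjusted p = 0.000525) in experiment 1 and -1.57 (SE 0.20, edgeR adjusted p = 7.82e-05) in experiment 2, the largest of any of the 9 genes in that comparison. Against re-colonized heads it was -0.58 (SE 0.11, edgeR adjusted p = 0.000934) and -1.07 (SE 0.20, edgeR adjusted p = 0.0032).

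abcg1 encodes a transporter that in mammals passes cholesterol to HDL particles and acts after ABCA1 (chromosome 15, 5028608 to 5074984, plus strand). In experiment 1 it ranged over 40.5, 55.2 and 60.7 CPM in axenic heads, 48.3, 60.8 and 71.6 CPM in re-colonized heads, and 58.2, 62.0 and 74.4 CPM in conventional heads. These ranges overlapped, and the log2 changes of -0.28 (SE 0.10, edgeR adjusted p = 0.0621) against conventional heads and -0.22 (SE 0.10, edgeR adjusted p = 0.146) against re-colonized heads did not pass. In experiment 2 axenic libraries 1, 3, 4 and 7 held 34.5, 29.4, 36.2 and 39.9 CPM, against 38.8, 53.0 and 103 CPM in re-colonized heads and 43.4, 63.4 and 94.1 CPM in conventional heads. The axenic libraries lay below every conventional one, and only re-colonized 6 fell inside their range. The change was -0.91 (SE 0.25, edgeR adjusted p = 0.0325) against conventional heads and -0.86 (SE 0.25, edgeR adjusted p = 0.0567) against re-colonized heads. The call against conventional heads was lost without any one of the 4 axenic libraries, with edgeR adjusted p of 0.0716, 0.102, 0.0695 and 0.0678 without axenic 1, 3, 4 and 7. The log2 change stayed between -1.02 and -0.84 over left-out libraries. In the same 4 runs edgeR called 1116, 946, 893 and 391 genes over the whole table, against 1237 with all libraries. The comparisons that missed the threshold by little, against conventional heads in experiment 1 and against re-colonized heads in experiment 2, passed with DESeq2 (adjusted p = 0.045 and 0.0125) and with limma voom (0.045 and 0.0473).

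**Figure D1:**
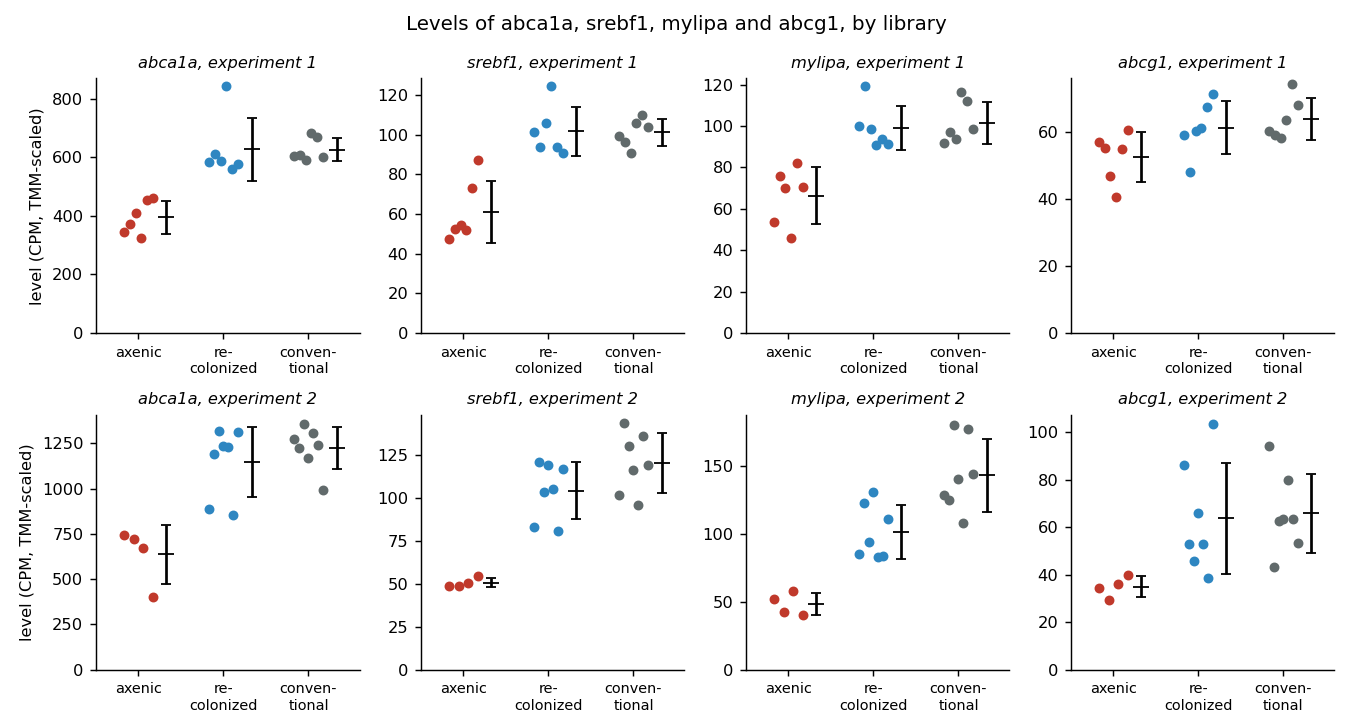
Levels of abca1a, srebf1, mylipa and abcg1 in each library, in CPM after TMM scaling (y axis, from 0), for axenic, re-colonized and conventional heads, with experiment 1 in the upper row and experiment 2 in the lower. Points are libraries and bars give the mean ± SD; for srebf1 in experiment 2 the 4 axenic points lie between 48.8 and 54.5 CPM, below every colonized library, while abcg1 overlaps between groups in experiment 1.

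abca1b, the second ABCA1 copy (chromosome 14, 6423973 to 6519077, plus strand), was called in none of the comparisons. In experiment 1 it ranged over 30.9, 40.8 and 82.7 CPM in axenic heads, 44.7, 48.0 and 57.2 CPM in re-colonized heads, and 35.5, 44.5 and 49.8 CPM in conventional heads. The groups overlapped throughout, and axenic A alone, at 82.7 CPM, was above all other libraries. In experiment 2 axenic 1 and 3 held 47.9 and 47.8 CPM and axenic 4 and 7 held 91.2 and 106 CPM, against 35.0, 42.4 and 65.0 CPM in re-colonized heads and 39.6, 60.8 and 83.3 CPM in conventional heads. Axenic 4 and 7 were above every colonized library and axenic 1 and 3 among them. The log2 change was 0.07 (SE 0.17, edgeR adjusted p = 0.839) and 0.33 (SE 0.25, edgeR adjusted p = 0.492) against conventional heads in experiments 1 and 2, and -0.09 (edgeR adjusted p = 0.775) and 0.62 (edgeR adjusted p = 0.224) against re-colonized heads.

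mylipb, the second copy of the LDL receptor ligase (chromosome 16, 25535993 to 25548739, plus strand), ranged over 9.85, 13.6 and 16.4 CPM in axenic heads of experiment 1, 6.99, 11.7 and 14.5 CPM in re-colonized heads, and 7.04, 10.4 and 12.7 CPM in conventional heads. The axenic range sat higher and overlapped both others. In experiment 2 axenic 1, 3, 4 and 7 held 8.37, 12, 17.2 and 21.2 CPM, against 6.90, 8.44 and 14.3 CPM in re-colonized heads and 5.83, 9.43 and 17.3 CPM in conventional heads. Axenic 7 was the highest of the 18 libraries, and axenic 1, 3 and 4 lay within the range of the colonized ones. The log2 change against conventional heads was 0.40 (SE 0.16, edgeR adjusted p = 0.0973) in experiment 1 and 0.60 (SE 0.28, edgeR adjusted p = 0.225) in experiment 2, and against re-colonized heads 0.22 (edgeR adjusted p = 0.398) and 0.67 (edgeR adjusted p = 0.238), none of them past the threshold. In both experiments the sign was therefore opposite to that of mylipa.

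Whether the copies changed unequally was tested on the log2 ratio of their counts within each library, which does not depend on scaling. The mylipa over mylipb ratio averaged 2.31 ± 0.513 in axenic heads against 3.37 ± 0.468 in conventional heads of experiment 1 (SD, n = 6 each), a difference of -1.06 (exact permutation test, two-sided, p = 0.00649, 0.0234 adjusted over 18 tests). Against the re-colonized ratio of 3.14 ± 0.357 the difference was -0.83 (exact permutation p = 0.0108, adjusted 0.0325), a call lost without axenic A or F or without re-colonized D, F or H (adjusted p = 0.0557 to 0.0668). In experiment 2 the ratio averaged 1.79 ± 0.690 in the 4 axenic libraries, against 3.48 ± 0.489 in the 7 re-colonized and 3.93 ± 0.612 in the 7 conventional ones. The differences were -1.69 (exact permutation p = 0.00606, adjusted 0.0234) and -2.15 (exact permutation p = 0.00303, the smallest that 4 against 7 libraries allow, adjusted 0.0234). Without axenic 4 or axenic 7 the adjusted permutation p against re-colonized heads stood at the threshold, 0.05, and not below it, so that call was lost. With all libraries the ratio was thus lower in axenic heads in all 4 comparisons with colonized heads.

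The abca1a over abca1b ratio averaged 3.17 ± 0.975 in axenic heads of experiment 2 (SD, n = 4), against 4.6 ± 0.370 in re-colonized heads and 4.44 ± 0.543 in conventional heads (SD, n = 7 each). The difference from re-colonized heads was -1.43 with no overlap (exact permutation p = 0.00303, adjusted 0.0234), and that from conventional heads was -1.27 (exact permutation p = 0.0182, adjusted 0.0468). The call against conventional heads was lost when any library was left out except axenic 1, axenic 3 and conventional 7 (adjusted p = 0.0735 to 0.141). In experiment 1 the axenic ratio of 3.18 ± 0.705 was not distinguished from 3.67 ± 0.273 in re-colonized heads (exact permutation p = 0.145, adjusted 0.271) or 3.84 ± 0.257 in conventional heads (exact permutation p = 0.0628, adjusted 0.141; SD, n = 6 each), although the test against conventional heads passed without axenic G (adjusted p = 0.0438). Between re-colonized and conventional heads neither ratio passed in either experiment. Reads that match both copies could be split or dropped by the counting, and how it treated them is not stated.

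**Figure D2:**
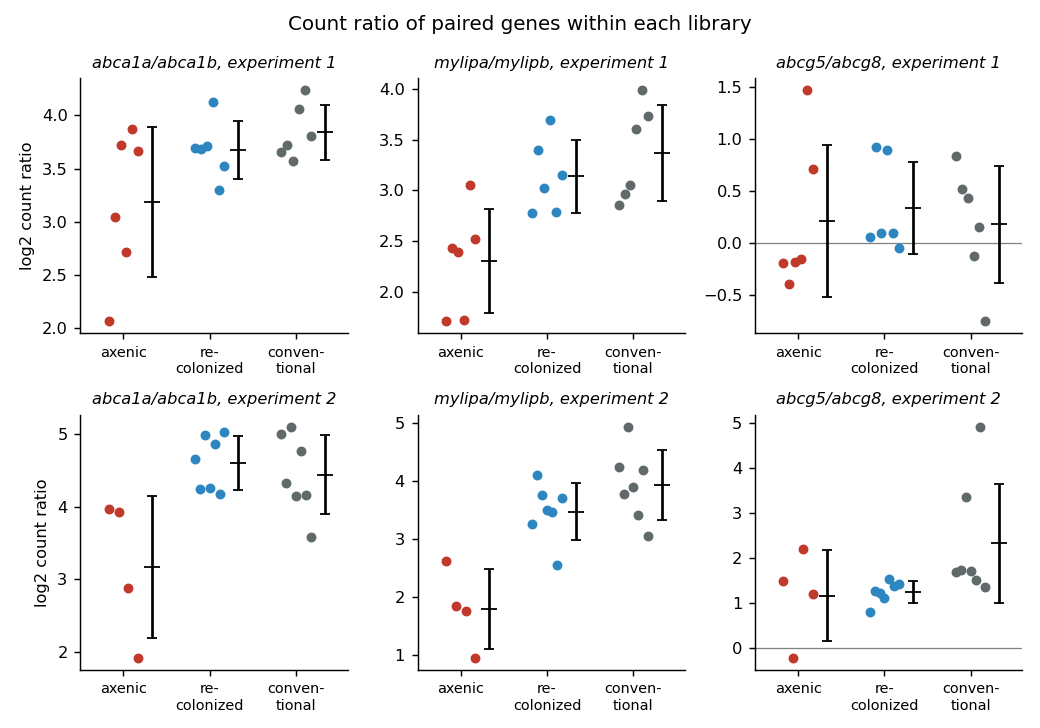
Log2 ratio of the counts of abca1a to abca1b, mylipa to mylipb and abcg5 to abcg8 within each library (y axis), for axenic, re-colonized and conventional heads in experiment 1 (upper row) and experiment 2 (lower row), with 0.5 counts added to each gene. Points are libraries and bars the mean ± SD; the mylipa to mylipb ratio averages 1.79 in axenic and 3.93 in conventional heads of experiment 2, and these libraries do not overlap.

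nr1h3 encodes Lxr itself (chromosome 7, 34414194 to 34448077, minus strand), and its human counterpart can be a target of its own product. In experiment 1 it ranged over 31.1, 34.9 and 47.0 CPM in axenic heads, 34.8, 41.2 and 48.6 CPM in re-colonized heads, and 37.0, 41.4 and 47.3 CPM in conventional heads. In experiment 2 axenic 1, 3, 4 and 7 held 19.3, 20.4, 26.0 and 24.3 CPM, against 22.8, 26.7 and 37.6 CPM in re-colonized heads and 20.4, 27.3 and 33.8 CPM in conventional heads. The axenic median was the lowest of the 3 groups in both experiments, with wide overlap. The log2 changes lay between -0.17 and -0.33, with edgeR adjusted p of 0.226 to 0.557.

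abcg5 and abcg8 encode 2 partner proteins that form one sterol transporter, which in mammals secretes sterols into bile and the gut lumen. The genes stand head to head on chromosome 13, abcg8 at 10926528 to 10945395 on the minus strand and abcg5 at 10945337 to 10968608 on the plus strand, and overlap by 59 bases. It is not stated whether reads were assigned by strand, and reads in the overlap could belong to either gene. Both were near the floor of the tables, with 15 to 171 counts per library for abcg5 and 5 to 74 for abcg8. In experiment 1 abcg5 averaged 2.26 ± 0.765 CPM in axenic, 3.32 ± 0.863 in re-colonized and 3.26 ± 1.33 in conventional heads, and abcg8 1.95 ± 0.742, 2.66 ± 0.838 and 2.69 ± 0.373 CPM (SD, n = 6 each). Their log2 changes of -0.44 to -0.56 did not pass (edgeR adjusted p = 0.155 to 0.233).

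In experiment 2 abcg5 was at 1.99, 1.15, 7.79 and 6.80 CPM in axenic 1, 3, 4 and 7, against 1.06, 3.93 and 6.86 CPM in re-colonized heads and 4.32, 5.17 and 8.38 CPM in conventional heads. Axenic 1 and 3 were below every conventional library and axenic 4 and 7 were among them, the same split of the axenic pools as for abca1b. abcg8 was at 0.697, 1.35, 1.68 and 2.94 CPM in axenic 1, 3, 4 and 7, against 0.598, 1.5 and 2.84 CPM in re-colonized heads and 0.252, 1.48 and 2.78 CPM in conventional heads. The groups overlapped for both genes and no change in axenic heads passed (edgeR adjusted p = 0.592 to 0.944). The abcg5 over abcg8 ratio was lower in re-colonized than in conventional heads of experiment 2, at 1.24 ± 0.240 against 2.32 ± 1.33 (SD, n = 7 each, exact permutation p = 0.00408, adjusted 0.0234), and the other 5 comparisons of this ratio did not pass. That call was lost without any one of the re-colonized libraries except library 5 (adjusted p = 0.0509 to 0.0944), and the highest conventional ratio, 4.92 in library 6, rests on 5 abcg8 counts.

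**Figure D3:**
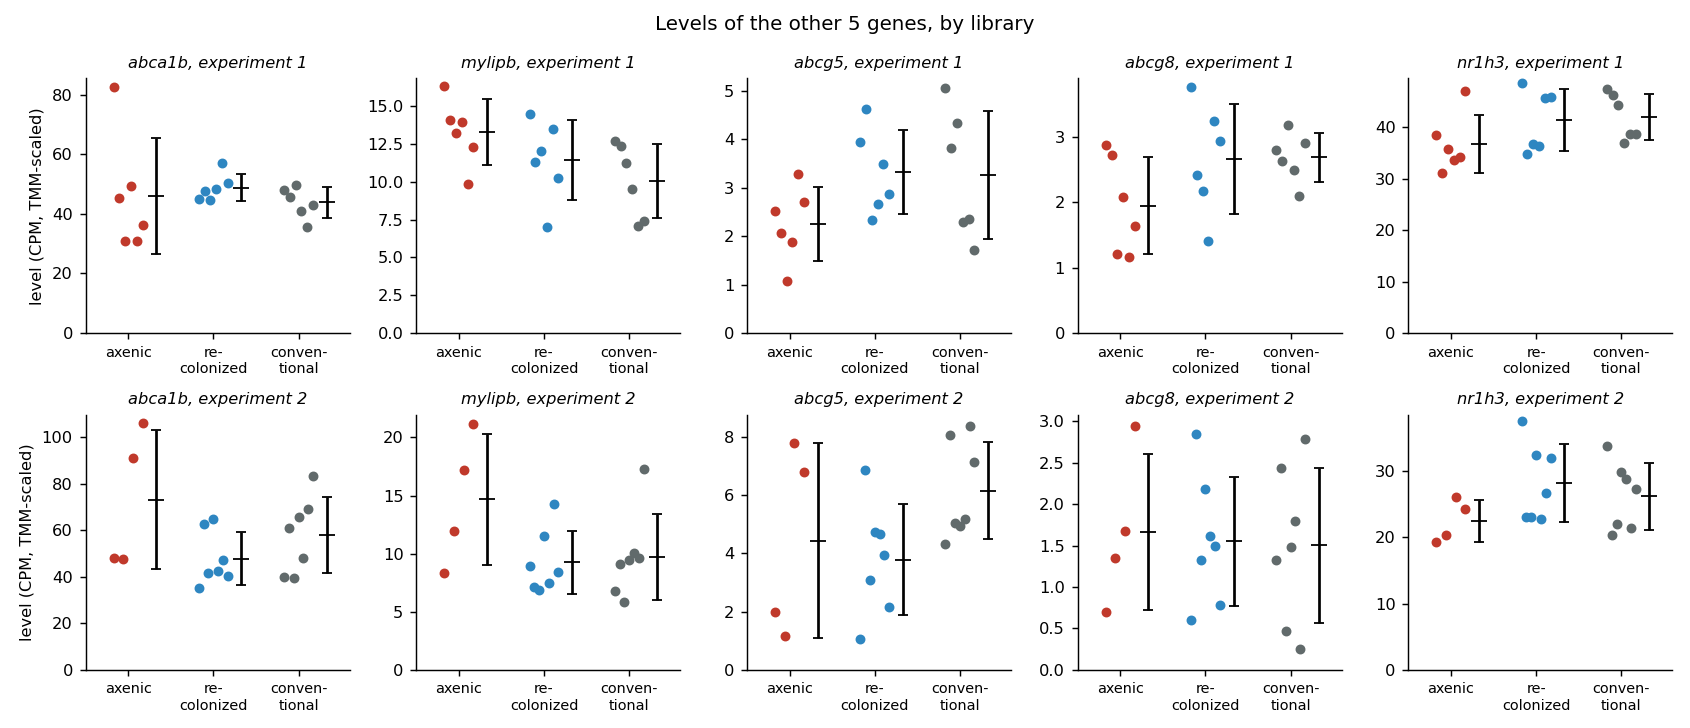
Levels of abca1b, mylipb, abcg5, abcg8 and nr1h3 in each library, in CPM after TMM scaling (y axis, from 0), for axenic, re-colonized and conventional heads of experiment 1 (upper row) and experiment 2 (lower row). Points are libraries and bars the mean ± SD; the axenic points of abca1b in experiment 2 fall into 2 at 47.8 and 47.9 CPM and 2 at 91.2 and 106 CPM.

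Counted over the 9 genes, axenic against conventional heads of experiment 1 gave 3 lower (srebf1, abca1a, mylipa) and 0 higher, where 15.6% of all tested genes were called, 6.71% as lower and 8.89% as higher. The same 3 were the members whose libraries did not overlap, which 6.58% of all genes met. Against re-colonized heads of experiment 1 the count was again 3 lower and 0 higher, beside 16.9% of all genes called, 8.27% called lower, 8.67% called higher and 6.08% without overlap. In experiment 2, axenic against conventional heads gave 4 lower, the same 3 with abcg1, and 0 higher, beside 6.13% of all genes called, 2.15% called lower, 3.99% called higher and 5.27% without overlap. Axenic against re-colonized heads gave 3 lower and 0 higher, beside 3.89% called, 0.64% called lower, 3.25% called higher and 4.41% without overlap. The members' median log2 change was -0.46 and -0.44 in experiment 1, against conventional and re-colonized heads, and -0.48 and -0.33 in experiment 2, where the medians of all genes lay between -0.01 and 0.04. Both comparisons share the axenic libraries, so they are not independent of each other.

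**Figure D4:**
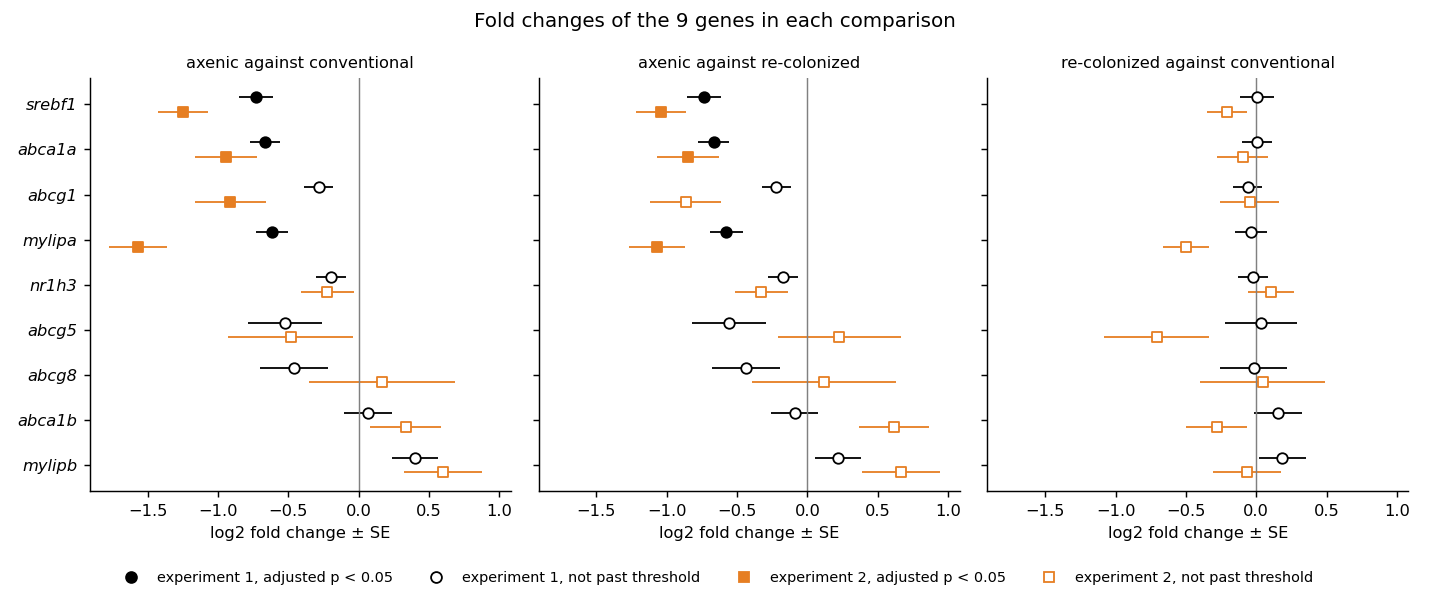
Log2 fold change ± SE (x axis) of the 9 genes (rows) in axenic against conventional, axenic against re-colonized and re-colonized against conventional heads, from edgeR. Black circles are experiment 1 and orange squares experiment 2, filled where the adjusted p is below 0.05; srebf1, abca1a and mylipa are filled in both experiments in the first 2 panels and no gene is filled in the third.

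Re-colonized against conventional heads asks whether the derivation procedure leaves a mark once microbes are returned. edgeR called 0 of the 9 genes in either experiment, where 0.0152% and 0% of all tested genes were called, and 0 had libraries without overlap (0.162% and 0.183% of all genes). DESeq2 also called 0, where it called 0.0507% and 0.585% of all genes, and limma voom 0, where it called 0.0152% and 0.585%. At an unadjusted p under 0.05 edgeR gave 0 of 9 in experiment 1, beside 4.79% of all genes, and 1 of 9 in experiment 2, beside 13.6%. In experiment 1 every log2 change was within 0.19 of 0, with SEs of 0.10 for abcg1 to 0.26 for abcg5. In experiment 2 the gene with an unadjusted p under 0.05 was mylipa, at 101 ± 19.9 CPM in re-colonized heads against 143 ± 26.8 CPM in conventional heads (SD, n = 7 each), a log2 change of -0.50 (SE 0.16, edgeR adjusted p = 0.274). abcg5 had the largest change, -0.71 (SE 0.37, edgeR adjusted p = 0.402), on few counts.

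Over both experiments together, with the change within each experiment given equal weight, edgeR called 5 of 9 genes in axenic against conventional heads, where 17.7% of all genes were called. srebf1 fell by 1.02 (SE 0.11, edgeR adjusted p = 1.11e-08), mylipa by 1.12 (SE 0.12, edgeR adjusted p = 5.73e-09), abca1a by 0.83 (SE 0.12, edgeR adjusted p = 4.07e-06) and abcg1 by 0.62 (SE 0.13, edgeR adjusted p = 0.000489), while mylipb rose by 0.47 (SE 0.16, edgeR adjusted p = 0.0373). abcg5, at -0.55 (SE 0.27, edgeR adjusted p = 0.167), passed with limma voom (-0.87, adjusted p = 0.0127), which called 6 of 9 genes and 20.6% of all genes. Against re-colonized heads 5 of 9 were called as well, where 14.4% of all genes were called: srebf1 (-0.92), mylipa (-0.85), abca1a (-0.78), abcg1 (-0.57) and nr1h3 (-0.28). The edgeR adjusted p was 0.0015 or less for the first 4 and 0.0498 for nr1h3, whose call was lost with limma voom (0.0565), without the filter on low counts (0.0979) and without re-colonized 1 and 7 (0.137). mylipb was at 0.41 (edgeR adjusted p = 0.0818) there. Between re-colonized and conventional heads edgeR called 0 of 9, beside 0% of all genes, and limma voom 0 of 9, beside 0.354%. There 1 of 9, mylipa, had an edgeR unadjusted p under 0.05, beside 9.3% of all genes.

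The falls were larger in experiment 2 than in experiment 1 by value, and the difference itself was tested in one fit over 36 libraries. For mylipa against conventional heads the change in experiment 1 minus that in experiment 2 was 1.02 (SE 0.23, edgeR adjusted p = 0.0581), just above the threshold. It passed with limma voom (1.04, adjusted p = 0.022), which called 0.589% of all genes, and without re-colonized 1 and 7 (edgeR adjusted p = 0.0489), where edgeR called 0.199%. For srebf1 it was 0.59 (SE 0.22, edgeR adjusted p = 0.282), and for abcg1 0.68 (SE 0.25, edgeR adjusted p = 0.288). edgeR called 0 of 9 genes in either comparison of axenic heads, beside 0.099% and 0% of all genes, with 3 of 9 at an unadjusted p under 0.05 in each, beside 11% and 7.31% of all genes. The 2 experiments differ in RNA isolation, in polyA selection against ribosomal depletion and in the pools themselves, which cannot be told apart.

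Other Lxr targets, outside the 9, were described by a list of 30 symbols known mainly from mammals, 26 of which were in the tables. In axenic against conventional heads of experiment 1, 5 of the 25 tested rose, 6 fell and 14 did not pass, with a median of -0.14. In experiment 2, 2 of the 24 tested rose, 3 fell and 19 did not pass, with a median of -0.09. Against re-colonized heads the counts were 3 higher and 8 lower in experiment 1 and 1 higher and 2 lower in experiment 2. Of all tested genes, 15.6% and 6.13% were called against conventional heads in experiments 1 and 2, and 16.9% and 3.89% against re-colonized heads. The list therefore moved both ways, and its median was nearer to 0 than that of the 9 genes. Both were chosen with earlier results of these data known, so the gap between the medians can follow from that choice.

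pltp and lpl, which handle lipoproteins, fell in all 4 comparisons of axenic with colonized heads. pltp, the phospholipid transfer protein that remodels HDL, held 33.1 ± 4.11 CPM in axenic heads (n = 4), against 83.6 ± 17.5 CPM in re-colonized and 104 ± 12.7 CPM in conventional heads of experiment 2 (SD, n = 7 each). Its log2 change there was -1.65 against conventional heads (SE 0.19, edgeR adjusted p = 2.58e-05) and -1.34 against re-colonized heads (SE 0.19, edgeR adjusted p = 0.000324), and -0.86 and -0.89 in experiment 1 (edgeR adjusted p = 7.84e-05 and 5.08e-05). lpl, lipoprotein lipase, fell by 0.83 and 0.85 in experiment 1 and by 1.02 and 1.03 in experiment 2, in the same order (edgeR adjusted p = 1.69e-05 to 0.0239). nr0b2a, the repressor Shp of bile acid synthesis, was at 2.78 ± 0.402 CPM in axenic against 11.2 ± 4.40 CPM in conventional heads of experiment 1 (SD, n = 6 each, log2 change -2.0, edgeR adjusted p = 1.57e-06). It fell by 1.76 against conventional heads in experiment 2 (edgeR adjusted p = 0.0153). The change against re-colonized heads was -1.55 in experiment 1 (edgeR adjusted p = 4.84e-05) and did not pass in experiment 2 (-0.79, edgeR adjusted p = 0.402). acacb, an acetyl-CoA carboxylase, rose by 0.62 and 0.81 against conventional heads in experiments 1 and 2 (edgeR adjusted p = 6.12e-05 and 0.0119) and by 0.58 against re-colonized heads of experiment 1 (edgeR adjusted p = 0.00012), and did not pass against those of experiment 2 (0.53, edgeR adjusted p = 0.143). scd, a stearoyl-CoA desaturase that makes monounsaturated fatty acids, was named after its values were seen. It fell by 1.25 and 1.12 against conventional and re-colonized heads of experiment 1 (edgeR adjusted p = 0.000558 and 0.00171). Its level was low, at 1.06 ± 0.313 CPM in axenic against 2.53 ± 0.444 CPM in conventional heads of experiment 1 (SD, n = 6 each). It did not pass in experiment 2 (-1.62 and -1.05, edgeR adjusted p = 0.108 and 0.433). scdb, of the same list and also named after its values were seen, had a higher level and did not pass against conventional heads of experiment 1. It was at 34.7 ± 1.85 CPM in axenic against 34.2 ± 1.74 CPM in conventional heads (SD, n = 6 each, log2 change 0.02, edgeR adjusted p = 0.897). apoc1 and apoea, of the same list and also named after their values were seen, rose against both colonized groups of experiment 1. Their levels were higher than those of scd. Against conventional heads their edgeR adjusted p was also smaller (9.98e-05 for apoc1 and 0.000369 for apoea). apoeb, of the same list and named in the same way, did not pass there. It was at 158 ± 35.3 CPM in axenic against 154 ± 18.7 CPM in conventional heads (SD, n = 6 each, log2 change 0.04, edgeR adjusted p = 0.872), where apoea was at 30.1 and 13.1 CPM. The values of apoc1 and apoea in experiment 2 are not given here.

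Lxr acts with Rxr and with coactivators and corepressors, of which 17 genes were tested. In axenic against conventional heads 1 rose and 1 fell in experiment 1, and 1 rose and 2 fell in experiment 2, with medians of -0.14 and -0.13. Of all tested genes, 15.6% and 6.13% were called there. ncoa1, a coactivator, fell by 0.33 (SE 0.10, edgeR adjusted p = 0.0249) and prmt1, an arginine methyltransferase, rose by 0.36 (SE 0.11, edgeR adjusted p = 0.0257) in experiment 1. In experiment 2 ncoa1 did not pass (-0.28, edgeR adjusted p = 0.371) and prmt1 rose by 0.94 (SE 0.28, edgeR adjusted p = 0.0495). rxrba, an Rxr gene, was at -0.19 (SE 0.08, edgeR adjusted p = 0.0884) in experiment 1 and at -0.36 (SE 0.14, edgeR adjusted p = 0.145) in experiment 2.

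Genes that make, bind or clear oxysterols, the ligands of Lxr, showed no common direction. In axenic against conventional heads 3 of 18 were higher and 3 lower in experiment 1, and 0 of 19 higher and 2 lower in experiment 2. Of all tested genes, 15.6% and 6.13% were called there. ch25h, which makes 25-hydroxycholesterol, was at 1.13 ± 0.342 CPM in axenic against 2.32 ± 0.772 CPM in conventional heads of experiment 1 (SD, n = 6 each, log2 change -1.02, SE 0.28, edgeR adjusted p = 0.0121). In experiment 2, at 0.670 ± 0.203 CPM in axenic heads (n = 4) against 0.888 ± 0.474 CPM in conventional heads (n = 7), it did not pass (-0.41, edgeR adjusted p = 0.741). osbp, an oxysterol-binding protein, fell by 0.34 in experiment 1 (SE 0.08, edgeR adjusted p = 0.00381) and was at -0.28 in experiment 2 (edgeR adjusted p = 0.332). sult2st2 and cyp27a7, of the same list, rose by 0.61 and 0.52 against conventional heads of experiment 1 (edgeR adjusted p = 0.00469 and 0.0102). In experiment 2 sult2st2 and cyp27a7 were at -0.14 and 0.64 and did not pass (edgeR adjusted p = 0.923 and 0.218).

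The sterol synthesis and uptake genes that SREBP-2 drives stood on the other side. Of 31 tested in experiment 1, 17 rose and 1 fell in axenic against conventional heads, with a median of 0.94, and of 32 in experiment 2, 9 rose and 0 fell, with a median of 0.63. Against re-colonized heads 17 rose and 4 fell in experiment 1 and 9 rose and 0 fell in experiment 2, with medians of 0.87 and 0.62. Among all tested genes, 8.89% were called higher and 6.71% lower against conventional heads of experiment 1, and 3.99% and 2.15% in experiment 2. Against re-colonized heads these shares were 8.67% and 8.27% in experiment 1 and 3.25% and 0.64% in experiment 2. cyp51, the lanosterol demethylase, held 28.6 ± 18.6 CPM in axenic heads of experiment 2 (n = 4), against 5.42 ± 2.04 CPM in re-colonized and 3.76 ± 1.3 CPM in conventional heads (SD, n = 7 each), a log2 change of 2.93 (SE 0.37, edgeR adjusted p = 7.39e-05) against conventional heads. hmgcra, the rate-limiting reductase, rose by 1.81 and 2.82 against conventional heads in experiments 1 and 2 (edgeR adjusted p = 0.00045 and 4.71e-05), and msmo1, a sterol oxidase, by 1.59 and 2.0 (edgeR adjusted p = 0.000821 and 0.0132). In experiment 1 their SDs among axenic pools were wide, at 38.4 ± 29.0 CPM for msmo1 against 12.7 ± 2.11 CPM in conventional heads (SD, n = 6 each), while the axenic SD of abca1a was 56.2 CPM around 395 CPM.

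**Figure D5:**
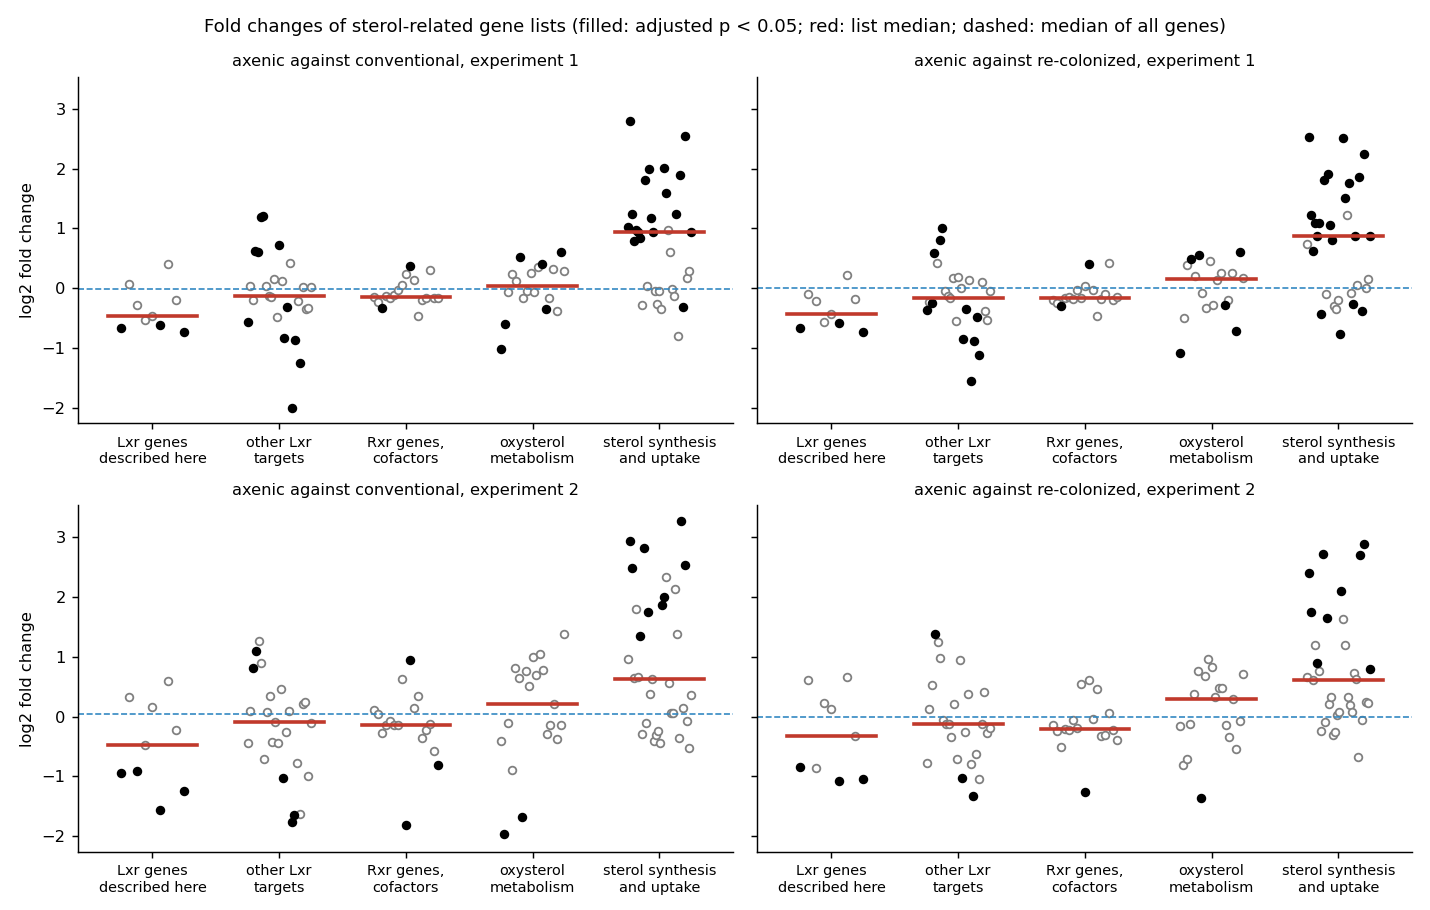
Log2 fold change (y axis) of each tested gene in 5 lists, in axenic against conventional and axenic against re-colonized heads (columns) of experiments 1 and 2 (rows). Filled points have an edgeR adjusted p below 0.05, red bars are list medians and the dashed line the median of all genes; the sterol synthesis and uptake list has a median of 0.94 in the first panel, where the 9 Lxr genes have -0.46.

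Other cells and organs also moved with the axenic state, and in pooled heads fewer cells of a type and less RNA per cell cannot be told apart. Macrophages use Lxr strongly in mammals. Of 24 tested macrophage markers 0 rose and 18 fell in axenic against conventional heads of experiment 1 (median -1.02), and of 26 in experiment 2, 0 rose and 7 fell (median -1.01). Against re-colonized heads 0 rose and 19 fell in experiment 1 (median -1.22), and 0 rose and 4 fell in experiment 2 (median -0.50). Among all tested genes, 6.71% and 2.15% were called lower against conventional heads in experiments 1 and 2. Against re-colonized heads 8.27% and 0.64% were called lower. The summed level of the 29 markers in the tables ran over 65.5 to 86.6 CPM in axenic, 160 to 248 CPM in re-colonized and 124 to 197 CPM in conventional heads of experiment 1. In experiment 2 it ran over 94.4 to 106 CPM, 95.4 to 208 CPM and 113 to 396 CPM, with 1 marker at 0 in all axenic libraries. mpeg1.2, a perforin of macrophages, was at 2.04 ± 0.722 CPM in axenic heads (n = 4), against 7.25 ± 4.63 CPM in re-colonized and 15.7 ± 11.1 CPM in conventional heads of experiment 2 (SD, n = 7 each). The part of this in the falls of srebf1, abca1a and mylipa was not tested.

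Liver and intestine markers were read in every group and moved the opposite way. Of 36 tested, 19 rose and 2 fell in axenic against conventional heads of experiment 1 (median 0.58), where 8.89% of all genes were called higher and 6.71% lower. In experiment 2, where 3.99% of all genes were called higher, 8 of 38 markers rose and 0 fell (median 0.77). Against re-colonized heads of experiment 1, where 8.67% of all genes were called higher, 19 of 36 markers rose and 0 fell (median 0.59). Against those of experiment 2, where 3.25% of all genes were called higher, 16 of 38 markers rose and 0 fell (median 1.07). Their summed level was 5961 to 10396 CPM in axenic, 3939 to 6060 CPM in re-colonized and 3589 to 5484 CPM in conventional heads of experiment 1, and 5753 to 13215, 1258 to 5789 and 4196 to 8245 CPM in experiment 2. Of 26 neuron markers tested in experiment 1, 8 rose and 0 fell against conventional heads (median 0.19), where 8.89% of all tested genes were called higher. Against re-colonized heads, where 8.67% of all tested genes were called higher, 11 of these markers rose and 0 fell (median 0.18). Of 27 in experiment 2, 1 rose and 0 fell in either comparison (medians 0.12 and -0.05), where 3.99% and 3.25% of all tested genes were called higher. tubb5, a tubulin of neurons, rose by 1.72 and 2.21 against conventional heads in experiments 1 and 2 (edgeR adjusted p = 9.99e-06 and 2.25e-05). The part of either list in the levels of the 9 genes was not tested.

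The genes whose levels ran most like each of the 9 were picked from 16126 genes of at least 1 CPM in both experiments, by the smaller of the 2 Pearson correlations of log2 CPM over the 18 libraries of each experiment. These values describe the libraries only, since they include any difference between axenic and colonized heads that a pair of genes shares. For srebf1 they were pltp (0.92 in experiment 1 and 0.90 in experiment 2) and mknk2b (0.90 and 0.87). For abca1a they were nbr1a (0.88 and 0.90) and kif19 (0.95 and 0.88), and for mylipa si:dkey-205h13.1 (0.90 and 0.94) and mcl1a (0.92 and 0.88). abcg1 ran most like pdpk1a (0.78 and 0.87) and maff (0.78 and 0.80), and nr1h3 like cebpg (0.84 and 0.84) and chuk (0.81 and 0.83). abca1b ran most like myh9a (0.76 and 0.86) and fa2h (0.71 and 0.74), and mylipb like agpat9l (0.87 and 0.77) and alcamb (0.77 and 0.88). The low genes had the weakest matches, with nploc4 (0.76 and 0.75) and galns (0.80 and 0.70) for abcg5 and BX511128.3 (0.64 and 0.66) and fer1l6 (0.61 and 0.71) for abcg8.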

How the data were processed

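The deposited values are estimated counts per gene, not normalized, in one table per experiment. The submitters' processing notes name bcl2fastq, STAR 2.5.3a, Partek 8.0.19.0428 and the build GRCz11. The gene annotation and the use of strand are unstated in the sources used. As 9.44% and 17.3% of values lay over 0.01 from a whole number, counts were rounded. No column lacked a sample (0), and no pair of libraries in a group agreed within sampling noise (chi-square per degree of freedom of at least 5.24 and 27.3).

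Each experiment was fitted with edgeR 4.0.16 (R 4.3.3) by quasi-likelihood over its 18 libraries, with 3 group means, TMM scaling, edgeR's filter on low counts and Benjamini-Hochberg adjustment over all tested genes. Genes were called below 0.05, two-sided. The SE is the absolute log2 change divided by the square root of F. One fit over 36 libraries and 21208 genes gave means of and differences between experiments. Ratios used 0.5 added counts, needed a mean of 10 counts, and were adjusted over 18 exact tests. Alternatives were DESeq2 1.42.0, limma 3.58.1 voom with sample quality weights, DESeq2's size factors, other filters, the 2 groups alone, a replicate block, removal of the 7SL and 7SK RNAs (33.3% to 46.5% of counts in experiment 1) and left-out libraries. The procedure was also run on simulated counts, whose outcome is not given here. They were drawn with the spread that edgeR fitted, so that run cannot show how well the procedure suits these pools.

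The 9 genes and all lists were chosen with earlier results of these data known. Apart from scd, scdb, apoc1, apoea and apoeb, genes were named from each other list by a rule. They were the up to 4 genes of at least 1 CPM with the smallest adjusted p in axenic against conventional heads of experiment 1. Some are left out for length. Of those left out, dhcr7, grn2, nefmb, stmn2a, stmn2b, gc and ttr passed there but not against conventional heads of experiment 2. Their edgeR adjusted p in the latter was 0.0691 to 0.962. grna, lcp1, apobb.2 and fabp10a, also left out, passed in both, and ep300b in neither.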

Additional observations from a re-analysis of the deposited data

Results flagged for a closer look

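Among 54 sets of one gene in one group, 4 held a library at one end that lay far from the others for a group of its size, and chance alone gives about 1 in 20. abca1b in axenic A of experiment 1 was at 82.7 CPM, with the next axenic library at 49.4 CPM and the lowest at 30.9 CPM. abca1a in re-colonized F of experiment 1 was at 844 CPM, with the next at 613 CPM and the lowest at 562 CPM. mylipa in re-colonized D of experiment 1 was at 119 CPM, with the next at 99.9 CPM and the lowest at 90.9 CPM. mylipb in conventional 7 of experiment 2 was at 17.3 CPM, with the next at 10.0 CPM and the lowest at 5.83 CPM. In each of these the library stood at the high end of its group, and none was an axenic library of a gene called as lower.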

How the results depend on the processing

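Of 1521 alternative values of single genes and ratios, 1401 kept their direction and side of the threshold, 34 lost a call, 16 gained one and 70 changed sign, 0 of these with a call either way. srebf1 and mylipa kept their 4 calls in axenic heads in every alternative run within an experiment. Of 179 alternative counts 176 stayed within 1.5 times. In axenic against conventional heads of experiment 2 the count ran from 2 to 4 over left-out libraries, 2 without axenic 7. Without axenic 7 edgeR called 391 genes in all, against 1237 with all libraries, so the calls over the whole table fell too. The count of genes whose change differed between experiments there was 1, mylipa, with limma voom (0.589% of all genes) and also without re-colonized 1 and 7 (0.199%). abca1a against re-colonized heads of experiment 2 was lost with only the 2 groups in the fit (edgeR adjusted p = 0.0706). The count of called members in that comparison was then 2 rather than 3, where 3.62% of all genes were called. Over left-out libraries that count also ran from 2 to 4. The calls over the whole table fell there too, from 785 genes with all libraries to 165 without axenic 7. They were 418 without axenic 4, 473 without re-colonized 3 and 451 without re-colonized 7.

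Whether the replicate letters or numbers pair the libraries was not settled. Same-named libraries correlated at -0.04 to 0.23 in experiment 1 and -0.19 to 0.40 in experiment 2. At most 2 libraries of a comparison correlated best with their own name. In experiment 2 these were 2 of the 4 shared names in each comparison of axenic heads and 2 of 7 in re-colonized against conventional heads. So few shared names cannot exclude pairing. With a replicate block the counts of called genes were 4, 3 and 0 in experiment 1 and 4, 4 and 0 in experiment 2 (axenic against conventional, axenic against re-colonized, re-colonized against conventional), where 16%, 11.6% and 0.0304% and 8.45%, 5.42% and 0.00992% of all genes were called. The block added mylipb in experiment 1 against conventional heads (0.48, edgeR adjusted p = 0.0337) and abcg1 in experiment 2 against re-colonized heads (edgeR adjusted p = 0.0151).

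The sign changes were of values at most 0.23 from 0 on the log2 scale, and their cause was not tested. With limma voom they were abca1b at -0.049 in axenic against conventional heads of experiment 1, abca1a at -0.030 and srebf1 at -0.012 in re-colonized against conventional heads of experiment 1, abcg5 at -0.43 and abcg8 at -0.093 in axenic against re-colonized heads of experiment 2, mylipb at 0.046 in re-colonized against conventional heads there, and 0.15 for the difference between experiments of abcg1 in re-colonized against conventional heads. With the replicate block they were, in re-colonized against conventional heads of experiment 1, abca1a at -0.025, abcg8 at 0.26, srebf1 at -0.052 and nr1h3 at 0.041. Without re-colonized 1 and 7 they were abcg5 at -0.10 and abcg8 at -0.21 in axenic against re-colonized heads and nr1h3 at -0.030 in re-colonized against conventional heads of experiment 2. In re-colonized against conventional heads over both experiments they were differences of 0.29 (abcg1) and 0.0053 (nr1h3) and means of 0.0020 (abca1b) and -0.018 (nr1h3).

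Over left-out libraries the following ranges crossed 0. In re-colonized against conventional heads of experiment 1 abca1a ran from -0.10 to 0.033, abcg5 from -0.10 to 0.20, abcg8 from -0.15 to 0.11, mylipa from -0.10 to 0.0029, srebf1 from -0.059 to 0.036 and nr1h3 from -0.081 to 0.022. In re-colonized against conventional heads of experiment 2 abcg1 ran from -0.22 to 0.046, abcg8 from -0.17 to 0.24 and mylipb from -0.22 to 0.12. In axenic heads abca1b of experiment 1 ran from -0.18 to 0.16 against conventional and from -0.34 to 0.0030 against re-colonized heads. In experiment 2 abcg8 ran from -0.31 to 0.42 against conventional and from -0.34 to 0.37 against re-colonized heads, and abcg5 from -0.18 to 0.55 against re-colonized heads. The abcg5 over abcg8 ratio in axenic against conventional heads of experiment 1 was -0.22, -0.068, -0.029 and -0.15 without axenic G, axenic H, conventional F and conventional H. It was -0.027 in re-colonized against conventional heads of experiment 1 without conventional H, and 0.38 in axenic against re-colonized heads of experiment 2 without axenic 3.

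The lowest counts per library, 15 for abcg5 and 5 for abcg8, leave counting error in their values, and in experiment 2 the axenic group has 4 libraries.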
